A study of Mus musculus with 12 samples.

Results

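Solute carrier (SLC) genes were followed in mouse bone-marrow monocytes that were either sorted or kept in culture with the cytokines GM-CSF and IL-4. They were chosen by name and by level. An autosomal protein-coding gene whose symbol is Slc followed by a number was taken when it reached 5 CPM (reads of a gene scaled to the reads in all genes of its library) in at least 2 of the 12 libraries, and 4 genes were set aside by name. The rule took 167 of 354 such genes, among 47643 gene IDs in the files. Just inside the minimum, Slc9a4, Slc1a2 and Slc26a10 had second-highest values of 5.24, 5.52 and 5.78 CPM. Just outside it, Slc13a3, Slc22a18 and Slc9a3r2 had 4.68, 4.49 and 4.40 CPM. The minimum was reached in all 12 libraries by 111 of the 167 genes, only in cultured libraries by 29 and only in monocyte libraries by 0. Genes that pass only through the libraries where they are high must differ between libraries, so the counts in culture are given beside those of the 9894 autosomal protein-coding genes that passed the same minimum. Among the 29 are Slc1a4, Slc7a2, Slc7a11, Slc9a4, Slc27a3, Slc30a4 and Slc39a14. For these the rule itself favoured higher values in culture, as it did for Slc41a2 and Slc4a11, which had no read in WT monocytes. It also did for Slc5a3, Slc19a1, Slc22a23 and Slc27a1, which stood under 5 CPM in both WT monocyte libraries. Their rises and p-values in culture are therefore a description.

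The poly(A) RNA libraries formed 6 groups of 2. Wild-type (WT) mice and mice labelled Nr4a3 knockout (KO), both on a C57BL/6 background, gave monocytes sorted from bone marrow and monocytes cultured with both cytokines for 1 day or for 2 days. The Nr4a3 protein is a nuclear receptor with no established ligand. The labels state independent experiments, but neither the number of mice behind a library nor which part of Nr4a3 is deleted, so p-values measure the spread between these libraries, which may be partly technical. The comparisons ask what culture changed in each genotype and what the lack of Nr4a3 changed at each stage.

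Solute carriers are membrane proteins that move amino acids, sugars, ions, metals, vitamins, nucleotides and organic acids across the plasma membrane and the membranes of organelles. Most are secondary transporters, which use the gradient of one solute to move another, or facilitators, and family members often share a substrate while sitting in different membranes. In myeloid cells they are known for supplying cystine for glutathione, arginine for arginase and nitric oxide synthase, and for keeping iron and zinc away from microbes. The 167 genes were placed by family and known substrate in 8 classes: 29 for amino acids and peptides, 23 for metals and heme, 22 for inorganic ions, 32 mitochondrial carriers, mostly of the SLC25 family, 24 for organic ions, lipids and vitamins, 10 for sugars, 4 for mono-, di- and tricarboxylates, and 23 for nucleosides and nucleotide sugars. Slc7a6os, an opposite-strand neighbour of Slc7a6, Slc4a1ap, an adaptor protein, and Slc9a3r1, the scaffold NHERF1, carry the name but do not transport.

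Depth ran from 5905266 to 18447405 reads in genes. Nr4a3 itself stood at 0.306 and 0 CPM in WT monocytes, 16.5 and 10.4 at day 1 and 1286 and 1357 at day 2, against 0.928 and 0 CPM in monocytes, 6.58 and 0 at day 1 and 39 and 19.3 at day 2 in the KO libraries. The library labelled KO day 1 replicate 1 therefore held Nr4a3 reads where its partner held 0, and it also stood apart from the other day 1 libraries on the first principal component of all genes, as WT monocyte replicate 2 did from the other monocytes. The summed level of 12 neutrophil markers was 4340 CPM in WT monocyte replicate 2 against 1151 in replicate 1, and the part of this in the results was not tested. Dates in the deposited names put the day 2 libraries in other experiments than the monocyte and day 1 libraries, so the day 2 stage cannot be told apart from its experiments. Day 2 replicate 1 of both genotypes also differed from replicate 2 in Xist (884.5 and 793.1 CPM against at most 1.01) and in the Y-linked Ddx3y (at most 0.167 against at least 59.8). The monocyte and day 1 libraries were like replicate 2, with Xist at most 0.173 CPM and Ddx3y at least 34.4. By these values, day 2 replicate 1 read as female and all other libraries as male. Comparisons of day 2 with monocytes or day 1 thus set a mixed group against a male one, and the part of this was not tested. By their sums, defining markers followed the labels. In WT cells, 10 classical monocyte markers summed to between 21244 and 22560 CPM in monocytes and 2078 to 3602 at day 2. Singly, 6 of them fell and 1 rose at WT day 1, and 6 fell and 0 rose at WT day 2. The 10 dendritic cell markers went from 206 to 246 up to 17381 to 19628 in WT cells. In KO cells at day 2, dendritic cell markers summed to 25406 to 28659 CPM, above both WT libraries. The monocyte markers summed to 3143 to 4167 there, overlapping WT. The part of this in the differences between genotypes was not tested. In bulk RNA, fewer cells of a type and less RNA per cell cannot be told apart. The lymphocyte marker Ncr1 and the stromal markers Dcn and Kitl were at 0 in all 12 libraries, and lymphocyte markers summed to at least 401 CPM in WT monocytes and at most 18.6 at day 2.

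Together the 167 genes took between 0.475% and 1.12% of the reads in genes. Per length, the highest means over the 12 libraries were those of the mitochondrial phosphate carrier Slc25a3, at 79.5 RPKM (CPM per kilobase of exons), and the scaffold Slc9a3r1, at 62.7. The zinc transporter Slc30a4 followed with a mean of 59.1 RPKM, but its level ran from 0.185 in WT monocytes through 61.8 at day 1 to 113 at day 2, which made it the highest gene of the 167 in cultured WT cells at day 2. Next came the ADP/ATP carrier Slc25a4 (58.2 RPKM), the heme transporter Slc48a1 (57.7), the oxoglutarate carrier Slc25a11 (54), the taurine transporter Slc6a6 (48.3) and the hexose transporter Slc2a6 (47.2). Slc25a3 and Slc25a11 passed no test in culture, and Slc25a11 lay between 95.3 and 161 CPM in all 12. By class, the summed level of the metal and heme transporters was 871 and 623 CPM in the WT monocyte libraries, 1609 in both day 1 libraries and 1801 and 1622 at day 2. Those of the 4 carboxylate transporters were 67.1 and 55.7, then 140 and 109, then 38 and 29.9.

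**Figure D1:**
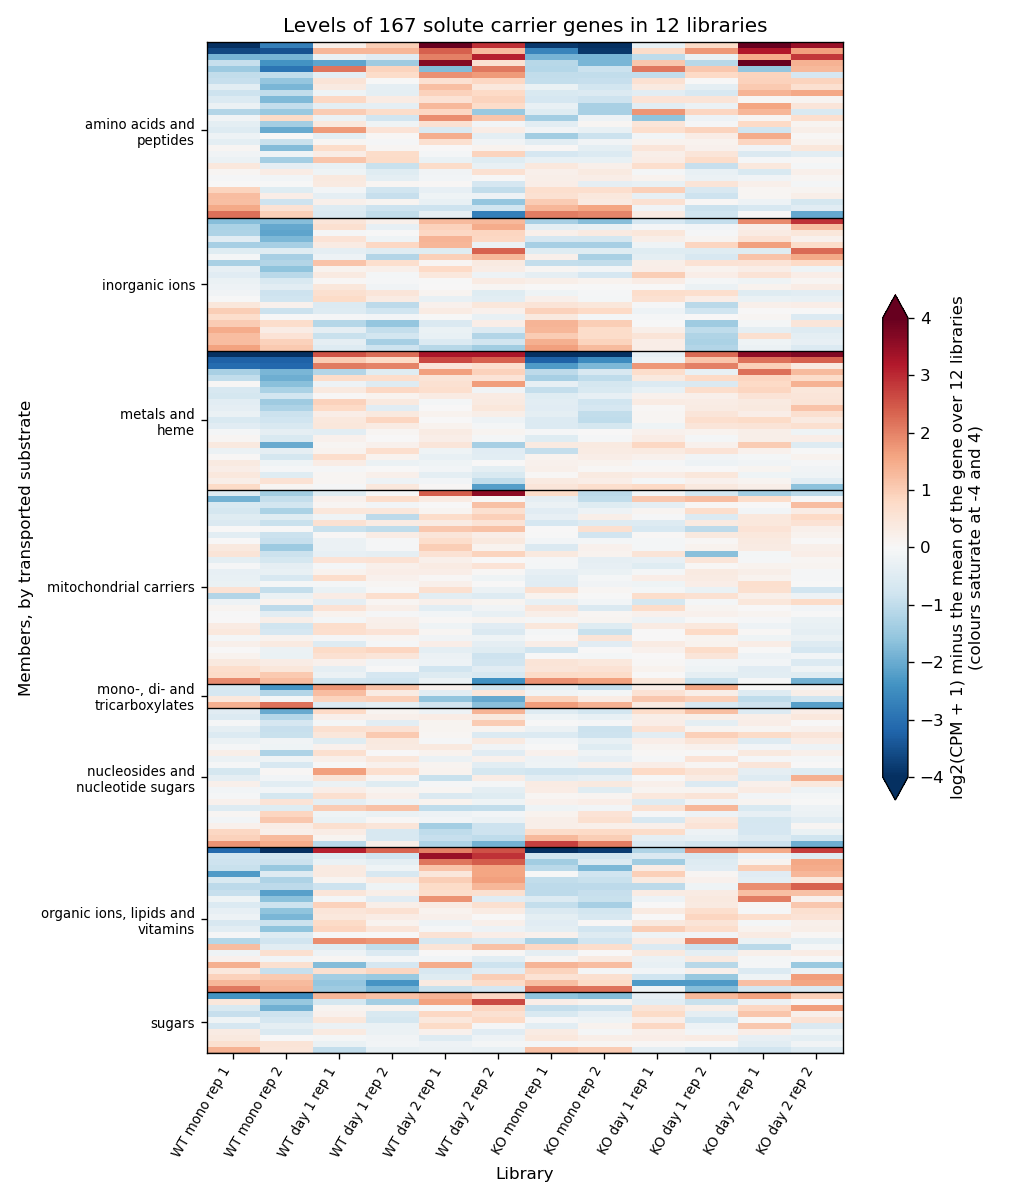
Each row is 1 of the 167 genes, ordered by class, and each column 1 of the 12 libraries. Colour gives log2(CPM + 1) in that library minus the gene's mean over the 12 libraries and saturates at -4 and 4, so that genes low in monocytes and high in culture read from blue to red.

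In WT cells, culture raised more of these genes than it lowered. Of the 167 genes, 40 (24.0%) rose and 17 (10.2%) fell between monocytes and day 1, and 44 (26.3%) rose and 15 (8.98%) fell between monocytes and day 2. Among all 14034 genes tested, 11.4% rose and 10.1% fell at day 1, and 12.7% rose and 9.89% fell at day 2. Among the autosomal coding genes with the same minimum, 14.0% rose and 12.8% fell at day 1, and 15.0% rose and 12.5% fell at day 2. The median log2 fold change of the 167 was 0.60 at day 1 and 0.52 at day 2, against 0.06 and 0.09 over all genes tested. With both libraries that stood apart left out, the medians were 0.37 and 0.34, against 0.08 and 0.09 over all genes. Calls were made by edgeR's quasi-likelihood test over all 12 libraries at a Benjamini-Hochberg adjusted p of 0.05, and fold changes are given on the log2 scale ± SE with 2 libraries a group.

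Single libraries weighed on these counts. Without WT monocyte replicate 2, 21 genes rose at day 1 and 27 at day 2. Without WT day 1 replicate 1 or 2, 17 and 25 rose and 8 and 4 fell at day 1, and without WT monocyte replicate 1, 10 fell. Without WT day 2 replicate 2, 24 rose and 9 fell at day 2. Of the 40 and 44 rises, 14 and 20 passed in every fit that left out 1 library, and of the 17 and 15 falls, 2 and 7. With the experiment as a block, 23 genes fell at day 2, and 13.9% of all genes. Where a solute carrier call given with its fold change was lost on leaving out a library, its adjusted p without that library follows it. Counts of genes outside this family also include calls that were lost on leaving out a library, and not all of these losses are given.

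**Figure D2:**
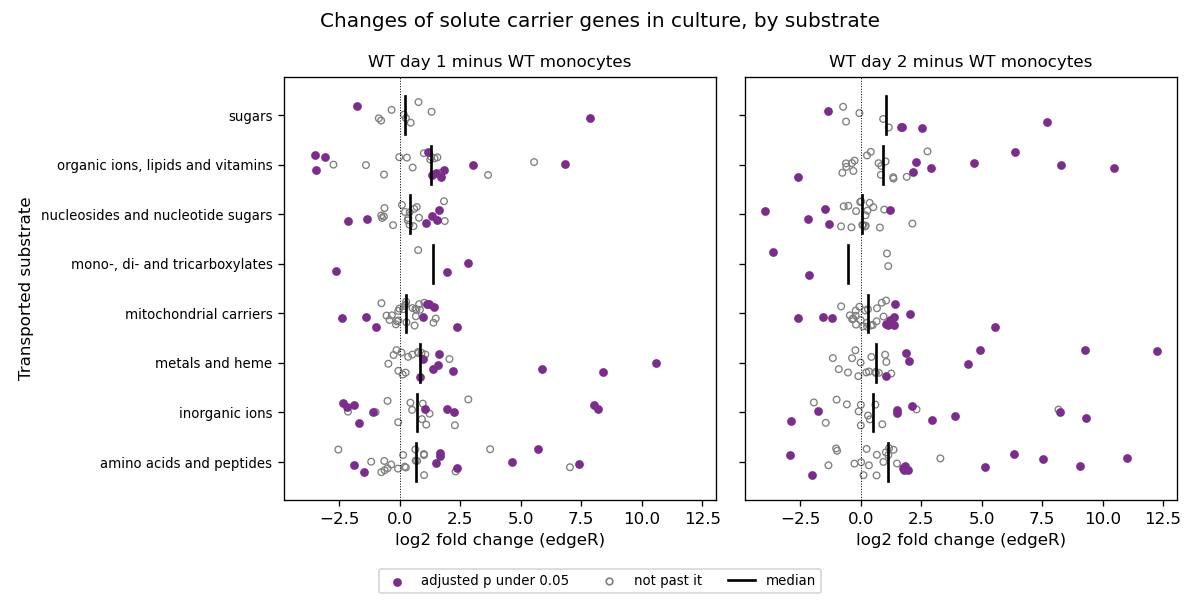
Each point is 1 gene's log2 fold change in WT cells against WT monocytes, by class, at day 1 (left) and day 2 (right), with the class median as a line. Filled points passed an adjusted p of 0.05, and in the metal and heme class they lie only above 0 on both days.

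Among the 29 amino acid and peptide transporters, 7 rose and 2 fell at day 1 in WT cells, and 10 rose and 2 fell at day 2, with median log2 fold changes of 0.65 and 1.14. Slc7a11 (ENSMUSG00000027737.10, chr3:49892526-50443614, minus strand of GRCm38) encodes xCT, the exchanger that brings in cystine for glutathione synthesis. It stood at 0.383 and 4.53 CPM in WT monocytes, 42.8 and 73.1 at day 1 and 608 and 279 at day 2. Every cultured library was above both monocyte libraries, and the day 2 libraries were above those of day 1. The log2 fold change was 4.61 ± 1.13 (adjusted p = 0.0165, 0.0695 without WT day 1 replicate 2) at day 1 and 7.55 ± 1.27 (adjusted p = 0.00224) at day 2. In KO cells, Slc7a11 went from 1.57 and 0 CPM in monocytes to 29.2 and 62.7 at day 1 and 801 and 406 at day 2. Its obligate partner, the 4F2 heavy chain Slc3a2, stood at 75.4 and 48.9 CPM in monocytes, 204 and 141 at day 1 and 222 and 254 at day 2 in the same WT groups. Slc3a2 groups did not overlap between monocytes and culture either, and it rose by 1.47 ± 0.32 (adjusted p = 0.00967, 0.0565 without WT monocyte replicate 2, 0.0801 without WT day 1 replicate 1) at day 1 and 1.94 ± 0.32 (adjusted p = 0.00216) at day 2.

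Of the other light chains known to pair with Slc3a2, Slc7a5, Slc7a6, Slc7a7 and Slc7a8 were among the 167. Slc7a5, the leucine transporter LAT1, ran from 24.7 and 8.33 CPM in WT monocytes to 309 and 131 at day 1 and 20.3 and 305 at day 2. At day 2 it was low in replicate 1 and high in replicate 2, in KO cells too (23.3 and 171), and it passed no culture test. Slc7a6, an exchanger of dibasic and neutral amino acids, was at 21.1 and 8.54 CPM in monocytes, 55.8 and 39.5 at day 1 and 46.6 and 59.1 at day 2 and rose by 1.83 ± 0.39 (adjusted p = 0.0078, 0.0558 without WT day 2 replicate 2) at day 2. Slc7a7, its paralog, passed no test at 35 and 41.3 CPM in monocytes, 29.6 and 23.9 at day 1 and 30.6 and 51.9 at day 2. Slc7a8 (LAT2), a transporter of neutral amino acids, was at 10.8 and 8.54 CPM in monocytes, 52.5 and 43.1 at day 1 and 46 and 8.59 at day 2 and passed no test.

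The cationic amino acid transporters, which carry arginine, differed in how long they were high. Slc7a2 was low in WT monocytes, at 1.15 and 1.37 CPM, and stood at 65.9 and 65.3 at day 1 and 139 and 63.4 at day 2. It rose by 5.70 ± 0.81 (adjusted p = 0.00118) and 6.33 ± 0.82 (adjusted p = 0.000531), and all cultured libraries were above all monocyte libraries. Slc7a1, the more widely expressed paralog, was at 41.9 and 14.2 CPM in monocytes, 197 and 89.4 at day 1 and 40.2 and 75 at day 2. It rose at day 1, by 2.35 ± 0.57 (adjusted p = 0.0163, 0.0748 without WT monocyte replicate 2, 0.124 without WT day 1 replicate 1), while its day 2 values overlapped those of monocytes. Of 12 genes of arginine and polyamine metabolism, 3 rose and 1 fell at day 1 and 3 rose and 0 fell at day 2. Among them, Odc1, ornithine decarboxylase, went from 23.8 and 20.6 CPM in monocytes to 580.0 and 552 at day 1 and 97.2 and 127 at day 2. The spermidine synthase gene Srm went from 13.1 and 10.6 CPM in monocytes to 169 and 134 at day 1 and 12.5 and 19.7 at day 2, and Sat1, which acetylates polyamines for export, fell at day 1 from 425 and 894 to 49 and 76.8. Arg1 was listed at 0 and 0.105 CPM in monocytes and at 49.2 and 156 at day 1 and 15.2 and 13.3 at day 2, whereas the argininosuccinate synthase gene Ass1, at 155 and 261 CPM in monocytes, 287 and 244 at day 1 and 511 and 299 at day 2, did not pass in WT cells.

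Neutral amino acid transporters of the SLC1 family split by day. Slc1a4 (ASCT1) had no read in the 4 monocyte libraries and stood at 1.98 and 1.63 CPM at day 1 and 13.6 and 30.1 at day 2 in WT cells. It was at least 164-fold higher at day 2 than a floor of 3 reads over the monocyte libraries (adjusted p = 0.000768). The glutamine transporter Slc1a5 (ASCT2) stood at 107 and 48.8 CPM in monocytes, 275 and 216 at day 1 and 106 and 90.3 at day 2. Its day 1 libraries were above all the others, with a rise of 1.66 ± 0.36 (adjusted p = 0.00944, 0.0645 without WT day 1 replicate 1). The lysosomal peptide and histidine transporter Slc15a3 went from 105 and 93.8 CPM in monocytes to 165 and 144 at day 1 and 355 and 327 at day 2 and rose by 1.78 ± 0.25 (adjusted p = 0.00075) at day 2. Its relative Slc15a4, at 147 and 75.5 CPM in monocytes, 48.3 and 32.3 at day 1 and 55 and 54.7 at day 2, fell at day 1, with a change of -1.47 ± 0.35 (adjusted p = 0.0145, 0.0649 without WT monocyte replicate 1, 0.122 without WT day 1 replicate 2).

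Both falls of the class at day 2 were in Slc43a3 and Slc16a10. Slc43a3 sits in an amino acid transporter family but is known for purine nucleobases. It stood at 53.4 and 27.4 CPM in WT monocytes and at 12.2 and 9.7 at day 1 and 9.77 and 9.98 at day 2, with no overlap, and changed by -2.03 ± 0.39 (adjusted p = 0.00426) at day 2. Slc16a10, an aromatic amino acid transporter, was at 135 and 56.3 CPM in monocytes, 18.8 and 13.9 at day 1 and 21.8 and 3.41 at day 2, and its day 2 call was lost without any 1 of 6 libraries, with an adjusted p of up to 0.158 without WT day 2 replicate 2. Slc38a1, Slc38a2 and Slc38a10, which carry glutamine and other amino acids, passed no test in culture.

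Genes that respond to amino acid shortage through the transcription factor ATF4, many of which encode amino acid enzymes, moved in both directions. Of 22 tested, 5 rose and 1 fell at day 1 in WT cells and 6 rose and 3 fell at day 2, with medians of 0.68 and 0.30. Asparagine synthetase, Asns, went from 0.383 and 1.48 CPM in monocytes to 25.3 and 21.9 at day 1 and 9.77 and 17.7 at day 2. Atf4 itself was at 211 and 146 CPM in monocytes, 319 and 364 at day 1 and 159 and 157 at day 2 and passed neither test. Of 14 genes of glutathione synthesis and the NRF2 response, 4 rose and 2 fell on each day. Srxn1, sulfiredoxin, went from 2.6 and 3.58 CPM in monocytes to 54.9 and 94 at day 1 and 126 and 65.4 at day 2, and Gclm, a subunit of the enzyme that uses the imported cysteine, from 20.6 and 15.5 CPM in monocytes to 111 and 155 at day 1 and 123 and 56.7 at day 2. The glutathione peroxidase Gpx1 did not pass.

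The stretch of 250 bases before the RefSeq start of Slc7a11 is printed because ATF4 is known to act through a short element, the CARE core, searched here as TGATGNAA on both strands. It occurs at 66 to 59 and at 47 to 40 bases before the start, in capitals below, on opposite strands. A match is only a match of letters: 7 of 170 windows (4.118%) at the starts of 125 of the 167 genes held one, against 3.969% of 32851 RefSeq promoter windows of 300 bases (250 before to 50 after a start).
Slc7a11 (GRCm38.p6, chr3:50443614-50443863, minus strand): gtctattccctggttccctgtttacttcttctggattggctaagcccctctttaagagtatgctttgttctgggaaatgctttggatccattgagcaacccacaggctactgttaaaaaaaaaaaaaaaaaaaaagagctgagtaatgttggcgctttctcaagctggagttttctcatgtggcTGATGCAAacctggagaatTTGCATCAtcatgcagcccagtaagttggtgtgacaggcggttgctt
The other 5 genes with a match were Slc1a4, Slc26a10, Slc50a1, Slc7a7 and Slc9a9, of which Slc1a4 rose in WT culture, Slc9a9 fell, and Slc26a10, Slc50a1 and Slc7a7 passed no test.

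Among the 23 metal and heme transporters, 9 rose and 0 fell at day 1 in WT cells and 7 rose and 0 fell at day 2, with medians of 0.84 and 0.63. Slc30a4 (ENSMUSG00000005802.12, chr2:122681233-122702663, minus strand) encodes ZnT4, which moves zinc out of the cytosol into vesicles. It stood at 0.766 and 1.26 CPM in WT monocytes, 371 and 307 at day 1 and 617 and 624 at day 2. Its rise was 8.4 ± 1.01 (adjusted p = 0.000574) at day 1 and 9.27 ± 1.04 (adjusted p = 0.000252) at day 2. In KO cells it went from 1.5 and 0.213 CPM in monocytes to 51.2 and 309.6 at day 1 and 765 and 838 at day 2, and the low day 1 value was that of the library labelled KO day 1 replicate 1. The other SLC30 zinc exporters tested in WT cells did not follow it: Slc30a1, Slc30a5, Slc30a6, Slc30a7 and Slc30a9 passed no test there.

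Of 9 SLC39 genes, a family of zinc importers, 4 rose at day 1 (Slc39a1, Slc39a10, Slc39a13 and Slc39a14) and 3 at day 2 (Slc39a1, Slc39a4 and Slc39a14), while Slc39a3, Slc39a6, Slc39a9 and Slc39a11 passed neither test. At day 1, Slc39a1, Slc39a10 and Slc39a13 were lost without any 1 of 4, 9 and 2 libraries, with adjusted p of up to 0.106, 0.139 and 0.106. Slc39a14 (ENSMUSG00000022094.15, chr14:70303469-70351425, minus strand), the importer ZIP14 of zinc and of iron not bound to transferrin, stood at 1.46 and 1.37 CPM in WT monocytes, 87.2 and 80.7 at day 1 and 28.4 and 32.5 at day 2. Monocytes, day 1 and day 2 did not overlap, and day 1 was highest. Its changes against monocytes were 5.88 ± 0.37 (adjusted p = 2.77e-05) at day 1, the smallest adjusted p of the 167 genes in that comparison, and 4.42 ± 0.36 (adjusted p = 3.83e-05) at day 2. Slc11a2 (DMT1), which takes ferrous iron out of endosomes, went from 14.3 and 6.75 CPM in monocytes to 49.2 and 48.4 at day 1 and 41.8 and 43.2 at day 2. It rose by 2.20 ± 0.35 (adjusted p = 0.00225) and 2.01 ± 0.35 (adjusted p = 0.00291). Slc11a1 (NRAMP1), the phagosomal metal exporter of phagocytes, was at 104 and 64.7 CPM in monocytes, 58.5 and 82 at day 1 and 63.2 and 12.4 at day 2 and passed no test. The zinc importer Slc39a1 stood at 62.3 and 61.3 CPM in monocytes, 106 and 115 at day 1 and 129 and 128 at day 2. Its rise was 1.06 ± 0.22 (adjusted p = 0.00653, 0.0511 without WT day 2 replicate 1, 0.053 without WT day 2 replicate 2) at day 2.

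Slc41a2 (ENSMUSG00000034591.5, chr10:83230848-83337882, minus strand), a magnesium transporter, had no read in the WT monocyte libraries. It stood at 18 and 14.9 CPM at day 1 and 57 and 47.2 at day 2 and was at least 124-fold higher at day 1 (adjusted p = 0.00113) and at least 392-fold higher at day 2 (adjusted p = 0.000333). Its paralog Slc41a3 passed no test at 19 and 10.8 CPM in monocytes, 30.05 and 20.1 at day 1 and 14.5 and 13.3 at day 2. Slc48a1 (HRG1), which exports heme from the lysosome, stood at 89.5 and 57.8 CPM in monocytes, 187 and 254 at day 1 and 225 and 128 at day 2 and rose at day 1, by 1.58 ± 0.42 (adjusted p = 0.022, 0.094 without WT monocyte replicate 2, 0.0514 without WT day 1 replicate 1, 0.115 without WT day 1 replicate 2). The low-affinity copper transporter Slc31a2 was at 47.9 and 41.5 CPM in monocytes, 98.4 and 134 at day 1 and 74.6 and 63.4 at day 2 and rose at day 1, by 1.38 ± 0.31 (adjusted p = 0.0117, 0.0808 without WT day 1 replicate 2), while Slc31a1, the high-affinity copper importer, passed no test.

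Of 17 further genes of iron, zinc and copper handling, 3 rose and 0 fell at day 1 and 6 rose and 0 fell at day 2. The calls of Ftl1 and Mt1 at day 1 and of Atox1, Fth1, Mt1 and Mt2 at day 2 were each lost on leaving out single libraries. The transferrin receptor Tfrc went from 11.7 and 6.53 CPM in monocytes to 181 and 170.1 at day 1 and 222 and 168 at day 2, and the metallothionein Mt1 from 4.59 and 8.54 CPM in monocytes to 31.1 and 52.7 at day 1 and 33.2 and 39.8 at day 2. Aco1, an iron regulatory protein, was at 61.5 and 77 CPM in monocytes, 99.5 and 68.1 at day 1 and 226 and 187 at day 2 and rose at day 2. The ferric reductase Cybrd1 was at 0 in all 12 libraries.

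**Figure D3:**
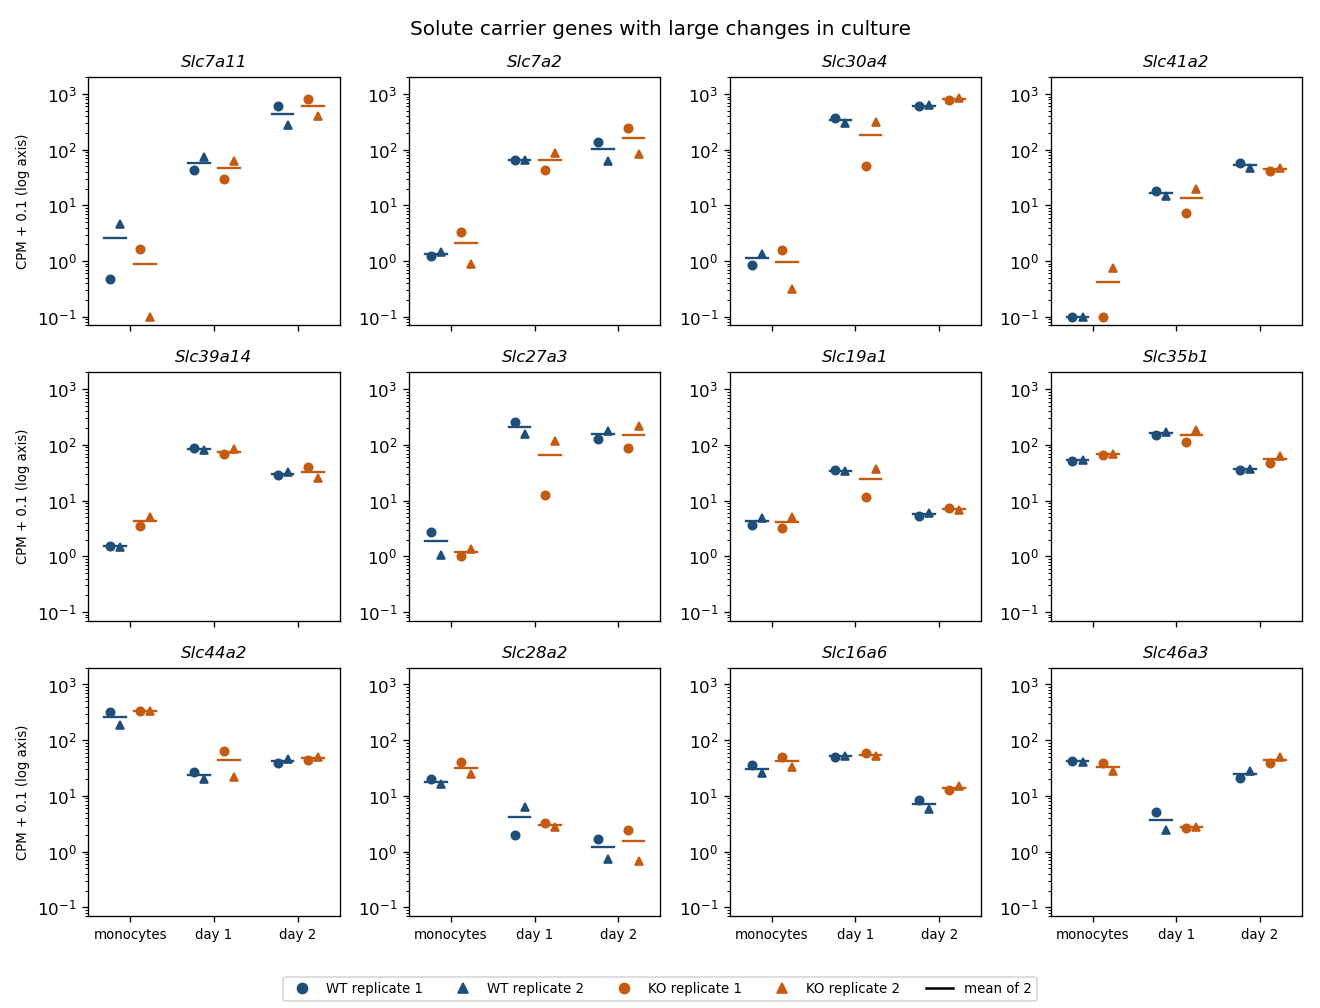
Levels of 12 genes in each of the 12 libraries, on a log axis of CPM + 0.1, WT and KO side by side at each stage, with circles and triangles for replicates 1 and 2 and bars for their mean. Slc30a4, Slc41a2, Slc7a11, Slc7a2 and Slc27a3 lie low in monocytes and high in culture, Slc19a1 and Slc35b1 peak at day 1, and Slc46a3 dips there.

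The 24 transporters of organic ions, lipids and vitamins gave 7 rises and 3 falls at day 1 in WT cells and 7 rises and 1 fall at day 2. Slc27a3 (ENSMUSG00000027932.14, chr3:90385239-90389938, minus strand), a member of the fatty acid transport protein family with acyl-CoA synthetase activity, stood at 2.6 and 0.949 CPM in monocytes, 262 and 158 at day 1 and 126 and 181 at day 2. It rose by 6.84 ± 1.05 (adjusted p = 0.00182) and 6.39 ± 1.04 (adjusted p = 0.00183) with no overlap of culture and monocytes. Its relative Slc27a1, the fatty acid transporter FATP1, went from 3.52 and 1.9 CPM in monocytes to 9.57 and 6.44 at day 1 and 17.5 and 24 at day 2 and rose by 2.92 ± 0.54 (adjusted p = 0.00357) at day 2. Both of its monocyte values were under the 5 CPM of the rule, so this rise is a description. Slc27a4 passed no test at 32.1 and 57.8 CPM in monocytes, 32 and 24.8 at day 1 and 36.8 and 38.3 at day 2.

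Vitamin transporters differed in timing. The vitamin C transporter Slc23a2 (SVCT2) stood at 32.6 and 13.2 CPM in monocytes, 88.1 and 73.8 at day 1 and 103 and 99.8 at day 2. It rose on both days, by 1.82 ± 0.36 (adjusted p = 0.00664) and 2.14 ± 0.37 (adjusted p = 0.00245). Slc19a1, the reduced folate carrier, was at 3.52 and 4.85 CPM in monocytes, 35.2 and 33.3 at day 1 and 5.28 and 5.81 at day 2. It was high at day 1 alone among the 3 WT groups, with a rise of 3.04 ± 0.52 (adjusted p = 0.00315). The thiamine transporter Slc19a2 had the same order of groups at 8.88 and 3.37 CPM in monocytes, 23.2 and 17.4 at day 1 and 11.8 and 10.4 at day 2. Slc33a1, which brings acetyl-CoA into the endoplasmic reticulum, went from 28 and 17.6 CPM in monocytes to 46.9 and 55.8 at day 1 and 86.1 and 135 at day 2. Its rise was 2.28 ± 0.37 (adjusted p = 0.00187) at day 2.

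Slc44a2 and Slc46a3 both fell at day 1, and Slc44a2 alone was still called lower at day 2. Slc44a2, a choline transporter-like protein, stood at 321 and 189.8 CPM in monocytes, 26.7 and 19.8 at day 1 and 39.2 and 45.7 at day 2. It changed by -3.46 ± 0.49 (adjusted p = 0.00115) at day 1 and -2.59 ± 0.47 (adjusted p = 0.00329) at day 2. Its paralog Slc44a1 was at 15.9 and 5.16 CPM in monocytes, 17.3 and 13.2 at day 1 and 65.9 and 13.1 at day 2, high in day 2 replicate 1 alone, and passed no test. The lysosomal transporter Slc46a3 stood at 42.7 and 41.1 CPM in monocytes, 4.95 and 2.36 at day 1 and 21 and 28.3 at day 2. It was lowest at day 1, with a change of -3.51 ± 0.39 (adjusted p = 0.000393) there, and its day 2 libraries were again above both day 1 libraries.

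Of the 10 sugar transporters, 1 rose and 1 fell at day 1, and 4 rose and 1 fell at day 2. Slc2a6, a hexose transporter of intracellular membranes in myeloid cells and the highest of the 10 per length, passed no test at 87.8 and 109 CPM in monocytes, 118 and 116 at day 1 and 239 and 134 at day 2. Slc5a3, the sodium and myo-inositol transporter, had 1 read in the WT monocyte libraries and stood at 13.3 and 11.7 CPM at day 1 and 13.7 and 8.97 at day 2. It was 282-fold higher at day 1, with a 95% counting interval of 50.2 to 11177, and lies in the locus of Mrps6 on the same strand, so its counts are uncertain. Slc2a9, a urate transporter of the glucose transporter family, fell at day 1 from 25.6 and 13.1 to 4.21 and 7.18 CPM, a change of -1.76 ± 0.42 (adjusted p = 0.0151, 0.0672 without WT monocyte replicate 1, 0.117 without WT day 1 replicate 1). Of the SLC37 sugar phosphate exchangers of the endoplasmic reticulum, Slc37a1 (18.3 and 4.01 CPM in monocytes, 7.68 and 4.57 at day 1 and 41.9 and 87.4 at day 2) rose at day 2, by 2.52 ± 0.62 (adjusted p = 0.0155, 0.123 without WT day 2 replicate 2). Slc37a2 and Slc37a3 passed at day 2 too, each lost without any 1 of 4 libraries (adjusted p of up to 0.108 and 0.231, on leaving out the first and the second WT day 2 library). In contrast, Slc37a4, the glucose-6-phosphate transporter, was at 22.4 and 16.9 CPM in monocytes, 15.8 and 15.2 at day 1 and 11.5 and 14.3 at day 2 and did not.

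The 4 carboxylate transporters, all of the SLC16 family, did not share a time course. Slc16a1, the lactate transporter MCT1, stood at 12 and 2.95 CPM in WT monocytes, 64.4 and 41.8 at day 1 and 21.1 and 10.9 at day 2, and rose at day 1 by 2.81 ± 0.65 (adjusted p = 0.0126, 0.0683 without WT day 1 replicate 1). Slc16a6 was at 35.8 and 25.2 CPM in monocytes, 50.6 and 52.3 at day 1 and 8.27 and 5.68 at day 2. Its day 2 libraries were below all the others, with a change of -2.13 ± 0.33 (adjusted p = 0.00146) against monocytes. Slc16a7 (MCT2), a high-affinity pyruvate and lactate transporter, was at 14 and 24.1 CPM in monocytes and at 2.81 and 3.26 at day 1 and 2.3 and 0.758 at day 2, and it fell by day 2, with a change of -3.62 ± 0.85 (adjusted p = 0.0127, with 0.0971 without WT day 2 replicate 2).

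Of the 22 inorganic ion transporters, 5 rose and 5 fell at day 1 and 7 rose and 2 fell at day 2 in WT cells. The SLC12 family holds cotransporters of chloride with potassium or sodium. Slc12a4 (KCC1) stood at 17.2 and 18.8 CPM in monocytes, 98.1 and 69.2 at day 1 and 46.1 and 56.5 at day 2. It rose by 2.22 ± 0.28 (adjusted p = 0.0007) and 1.51 ± 0.28 (adjusted p = 0.0034). Slc12a7 (KCC4) was at 13 and 7.17 CPM in monocytes, 51.2 and 25.9 at day 1 and 62.8 and 92.7 at day 2. Its rise was 2.94 ± 0.46 (adjusted p = 0.00156) at day 2. Slc12a9, another member of the family, went from 82.6 and 67.1 CPM in monocytes to 26.9 and 13.4 at day 1 and 23.8 and 20.1 at day 2. Its changes were -1.89 ± 0.49 (adjusted p = 0.0212, 0.0523 without WT monocyte replicate 1, 0.148 without WT day 1 replicate 2) and -1.77 ± 0.49 (adjusted p = 0.0267, 0.0623 without WT monocyte replicate 1, 0.0971 without WT day 2 replicate 1, 0.152 without WT day 2 replicate 2).

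Sodium and proton exchangers of the SLC9 family moved in both directions. Slc9a9, an exchanger of recycling endosomes, stood at 35.2 and 23.6 CPM in WT monocytes, 7.35 and 5.63 at day 1 and 4.48 and 3.54 at day 2. Groups did not overlap, and the change was -2.87 ± 0.52 (adjusted p = 0.00326) at day 2. Slc9a4 had no read in the 4 monocyte libraries and stood at 2.15 and 3.42 and 5.28 and 1.14 CPM in cultured WT cells. Slc4a11, a borate transporter-like protein, had no read in WT monocytes, stood at 3.55 and 2.69 CPM at day 1 and 6.66 and 6.95 at day 2, and was at least 51.1-fold higher at day 2 (adjusted p = 0.00184). Slc8a1, the sodium and calcium exchanger, fell at day 1 from 40.4 and 32.6 to 8.25 and 6.12 CPM, with a change of -2.34 ± 0.51 (adjusted p = 0.00962, 0.0816 without WT day 1 replicate 2).

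Of the 32 mitochondrial carriers, 5 rose and 3 fell at day 1 in WT cells and 8 rose and 3 fell at day 2, with medians of 0.26 and 0.28. None of the 8 rises passed in every fit that left out a library. Slc25a4, the ADP/ATP carrier of muscle and heart, stood at 78.9 and 52.6 CPM in monocytes, 174 and 174 at day 1 and 138 and 199.8 at day 2, and rose by 1.36 ± 0.32 (adjusted p = 0.0135, 0.0728 without WT monocyte replicate 2, 0.129 without WT day 2 replicate 2) at day 2. Slc25a1, the citrate carrier, was at 25.3 and 25.5 CPM in monocytes, 31.7 and 16.8 at day 1 and 60.8 and 70.6 at day 2, high at day 2 only. Slc25a10, the dicarboxylate carrier, had its lowest WT values at day 1 (32.4 and 31.6 CPM in monocytes, 16.6 and 15.2 at day 1 and 68.9 and 72.5 at day 2). Of the iron importers of mitochondria, Slc25a28 (mitoferrin 2) went from 41.2 and 49.7 CPM in monocytes to 20.1 and 14.3 at day 1 and 16.2 and 14.9 at day 2 and changed by -1.55 ± 0.28 (adjusted p = 0.00329) at day 2. Slc25a37 (mitoferrin 1) kept overlapping groups at 41.1 and 13.4 CPM in monocytes, 22.3 and 26.5 at day 1 and 42.7 and 22.7 at day 2.

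Of the 23 nucleoside and nucleotide sugar transporters, 4 rose and 2 fell at day 1 in WT cells, and 1 rose and 4 fell at day 2. Slc35b1, which exchanges ATP into the endoplasmic reticulum, stood at 51.7 and 53.2 CPM in monocytes, 150.2 and 171 at day 1 and 36.1 and 37.4 at day 2. Its day 1 libraries were above all other WT libraries, with a rise of 1.61 ± 0.29 (adjusted p = 0.00375). Slc28a2, the concentrative nucleoside transporter CNT2, went from 19.99 and 15.9 CPM in monocytes to 1.9 and 6.12 at day 1 and 1.61 and 0.632 at day 2 and changed by -3.98 ± 0.76 (adjusted p = 0.00452) at day 2. The equilibrative transporters Slc29a1 and Slc29a3 passed no test, with Slc29a3 at 170.4 and 60.5 CPM in monocytes, 228 and 146 at day 1 and 159 and 105 at day 2. Slc35e4, an orphan relative of the nucleotide sugar transporters, fell from 33.6 and 42.9 CPM in monocytes to 18.7 and 10.9 at day 1 and 8.73 and 8.08 at day 2, a change of -2.18 ± 0.33 (adjusted p = 0.00131) at day 2, and Slc35c2, another relative, fell by day 2 from 125 and 136 to 42.9 and 62.8 CPM, with a change of -1.31 ± 0.31 (adjusted p = 0.0129, 0.117 without WT day 2 replicate 1).

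Between day 1 and day 2 of culture, 8 of the 167 genes (4.79%) rose and 6 (3.59%) fell in WT cells, against 4.67% and 3.51% of all genes tested and 6.11% and 4.78% of the autosomal coding genes with the same minimum, so these shares are near the background. Leaving out either WT monocyte library gave 15 rises and 10 falls, and leaving out any 1 of the 4 cultured WT libraries gave 2 to 4 rises and 2 or 3 falls. With the experiment as a block, 19 rose and 13 fell, of all genes 8.22% and 8.13%. The calls that held in every fit leaving out a library were Slc46a3, with a log2 fold change of 2.75 ± 0.38 (adjusted p = 0.00346), Slc25a10, with 2.15 ± 0.30 (adjusted p = 0.00347), Slc16a6, with -2.88 ± 0.34 (adjusted p = 0.00157), and Slc35b1, with -2.13 ± 0.29 (adjusted p = 0.00332). Slc22a23, an orphan organic ion transporter, had 3 reads at day 1 and stood at 18.2 and 12 CPM at day 2, a 124-fold ratio with a 95% counting interval of 41.8 to 604. It reached 5 CPM in the WT day 2 libraries alone, so the rule itself fixed that it was higher there. Its values and its call are therefore a description. It passed the test and was lost without 3 libraries (adjusted p of up to 0.128 without WT day 2 replicate 1). Over the 12 libraries it had 266 reads on its own strand and 84 on the other, and Gm24530 overlaps it on its own strand, so its counts are uncertain.

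In KO cells, 21 genes (12.6%) rose and 10 (5.99%) fell between monocytes and day 1, where 7.7% and 6.14% of all genes tested did. Between monocytes and day 2, 29 (17.4%) rose and 12 (7.19%) fell, where 9.95% and 7.57% of all genes did. Among the autosomal coding genes with the same minimum, 9.37% rose and 8.03% fell at day 1 and 11.6% rose and 9.89% fell at day 2. The medians of the 167 were 0.35 and 0.29, against 0.11 and 0.08 over all genes. Of the 21 rises at day 1, 20 were also among the 40 WT rises, Slc4a7, a bicarbonate transporter, being the exception (lost without any 1 of 10 libraries, with an adjusted p of up to 0.253), and all 10 falls were among the 17 WT falls. At day 2, 23 of the 29 KO and 44 WT rises and all 12 KO falls of the 15 WT falls were shared. The same overlap was not counted over all genes, so this sharing is not shown to be particular to solute carriers. The 6 genes called higher in KO alone at day 2 were Slc30a7, Slc31a2, Slc39a10, Slc48a1, Slc5a6 and Slc6a13. The test of whether the change differed between genotypes called none of them, and each was lost without at least 2 libraries, with an adjusted p of up to 0.315 for Slc6a13. With the experiment as a block, 21 fell at day 1 (10.1% of all genes), and 45 rose and 20 fell at day 2 (13.5% and 11.5% of all genes).

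Metal and heme transporters again gave rises only, 5 at day 1 and 10 at day 2 in KO cells. Slc39a14 stood at 3.36 and 4.96 CPM in KO monocytes, 68.3 and 82.9 at day 1 and 39.3 and 25.7 at day 2, with changes of 4.18 ± 0.34 (adjusted p = 7.94e-05) and 2.96 ± 0.32 (adjusted p = 0.00027). Slc7a2 was at 3.21 and 0.78 CPM in monocytes, 43 and 87.8 at day 1 and 244 and 82.1 at day 2 and changed by 6.34 ± 0.80 (adjusted p = 0.0006) at day 2, and Slc27a3, at 0.928 and 1.28 CPM in monocytes, 12.5 and 118 at day 1 and 88.5 and 215 at day 2, by 7.09 ± 1.07 (adjusted p = 0.00162). In the library labelled KO day 1 replicate 1, Slc27a3, Slc30a4 and Slc19a1 stood well below replicate 2: Slc19a1 was at 11.6 and 37.1 CPM. Slc44a2 fell in KO cells as well, from 340.3 and 336 CPM in monocytes to 65.2 and 21.9 at day 1 and 44.8 and 49.8 at day 2. Leaving out KO monocyte replicate 1 or 2 gave 5 and 6 rises and 4 falls at day 1, and 18 and 15 rises and 4 and 5 falls at day 2. Without KO day 1 replicate 2 there were 8 rises and 2 falls at day 1, without either WT monocyte library 32 rises, and without WT day 2 replicate 1, 13. Without KO day 2 replicate 1 or 2 there were 7 and 5 falls at day 2, and without replicate 2, 19 rises.

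From day 1 to day 2 in KO cells, 3 genes (Slc15a3, Slc46a3 and Slc4a11) rose and 2 (Slc16a6 and Slc35b1) fell, where 1.5% and 0.542% of all genes tested did, and 2.06% and 0.748% of the autosomal coding genes with the same minimum. Slc46a3 went from 2.6 and 2.62 to 38.6 and 50.8 CPM, a change of 4.10 ± 0.40 (adjusted p = 0.0012), and Slc15a3 from 139 and 119 to 488 and 547, a change of 2.01 ± 0.25 (adjusted p = 0.00372). Slc4a11 was lost without any 1 of 8 libraries (up to 0.25), Slc16a6 without either KO day 2 library (0.112 and 0.0735) and Slc35b1 without any 1 of 9 (up to 0.271). Without either WT monocyte library there were 8 rises. With the experiment as a block, 10 rose and 7 fell (4.05% and 3.45% of all genes).

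KO and WT cells were compared at each stage, and none of the 167 genes passed edgeR's test at an adjusted p of 0.05 in monocytes (0.0% of all genes higher and lower), at day 1 (0.0%) or at day 2 (0.0% higher and 0.0998% lower). DESeq2 called 0 in monocytes (0.0% of all genes) and 0 at day 1 (0.00446% higher), and at day 2 it called 0 higher (0.00446%) and 3 lower, Slc25a29, Slc22a23 and Slc37a1 (0.371%). At an unadjusted p under 0.05, 6 were higher and 1 lower in KO monocytes (1.93% and 2.04% of all genes), 0 and 1 at day 1 (1.32% and 0.477%), and 4 and 7 at day 2 (0.613% and 2.55%). Without WT monocyte replicate 1, 2 genes were called higher in KO monocytes. The change from monocytes to day 1 or day 2 differed between genotypes for 0 genes (0.0% of all genes at day 1, 0.0285% lower at day 2), and for 2 at day 2 without WT monocyte replicate 1.

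By dates in the deposited names, same-numbered KO and WT libraries of a stage came from 1 experiment. A paired fit on the 4 day 2 libraries alone, chosen after seeing the data, called 26 genes (15.6%) higher and 12 (7.19%) lower in KO cells. Of all 12233 genes tested, 6.25% were higher and 6.49% lower, and of the autosomal coding genes with the same minimum 7.25% and 6.98%. The share of lower genes is therefore near the background. The paired fit rests on 2 pairs, which leave 1 residual degree of freedom. The block by experiment over all 12 libraries, which holds the same pairs, called 0 higher and 0 lower (0.0% and 0.249% of all genes). Paired fits on the 4 libraries of an earlier stage called 0 in monocytes (0.0165% and 0.0248% of all genes) and 0 at day 1 (0.0%). The 4 genes with the smallest p at day 2 in the fit over all 12 libraries are described next. For 2 of them, Slc25a29 and Slc22a23, the minimum of 5 CPM was reached in the WT day 2 libraries alone, so the rule itself fixed that they were lower in KO cells, and their values are a description. The same holds for Slc1a2, with means of 5.70 CPM in WT and 1.46 in KO cells at day 2. It holds in the other direction for Slc17a8, 1 of the 26 higher genes, which reached the minimum in the KO day 2 libraries alone. The genes that DESeq2 called lower at day 2 also include Slc25a29 and Slc22a23.

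Slc25a29 (ENSMUSG00000021265.3, chr12:108825873-108835883, minus strand), a mitochondrial carrier of basic amino acids, stood at 13.2 and 30.3 CPM in WT and 0 and 0.245 in KO cells at day 2. The KO libraries held 3 reads in all, a ratio of 129.9-fold with a 95% counting interval of 44.1 to 633. In WT monocytes and at day 1 it was at 0.842 and 0 and 0.908 and 1.63 CPM, so its high values were those of WT day 2 only. Slc22a23 (ENSMUSG00000038267.14, chr13:34179158-34345182, minus strand) was at 18.2 and 12 CPM in WT and 0.50 and 0.245 in KO cells.

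Slc37a1 (ENSMUSG00000024036.15, chr17:31286792-31350739, plus strand) stood at 41.9 and 87.4 CPM in WT and 11 and 13.3 in KO cells, a difference of -2.41 ± 0.62 (adjusted p = 0.45) and in the paired fit -2.39 ± 0.21 (adjusted p = 0.0013). Slc33a1 (ENSMUSG00000027822.16, chr3:63933507-63964768, minus strand) was at 86.1 and 135 and 32.5 and 58.9 CPM, a difference of -1.27 ± 0.36 (adjusted p = 0.601) and in the paired fit -1.29 ± 0.11 (adjusted p = 0.000442). For both genes the KO libraries lay below the WT libraries. For Slc37a1 the KO values at day 2 lay within the range of KO monocytes and day 1 (16.1 and 14.5 and 9.69 and 6.62 CPM).

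**Figure D4:**
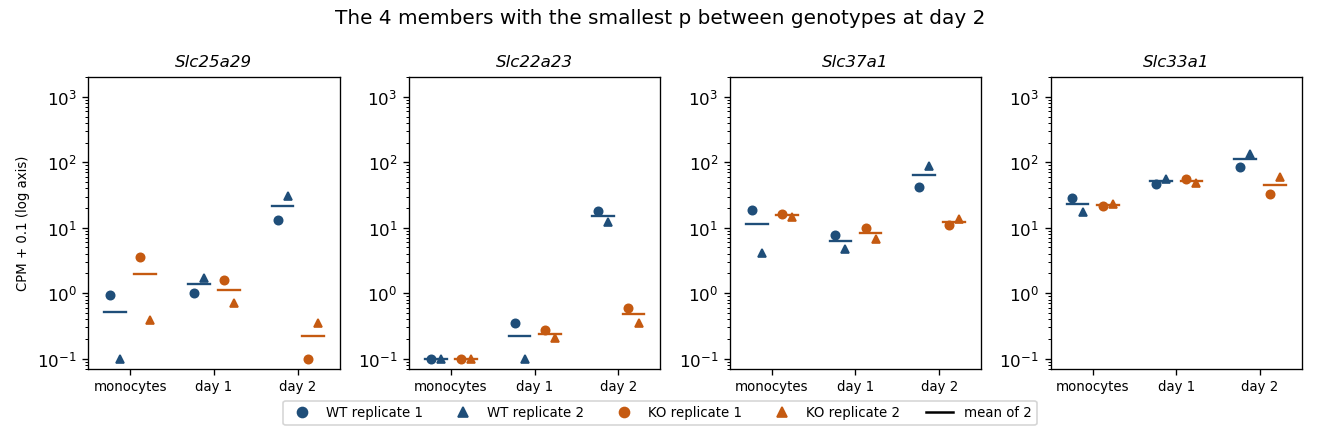
Levels of Slc25a29, Slc22a23, Slc37a1 and Slc33a1 in the 12 libraries by stage, on a log axis of CPM + 0.1, with circles and triangles for replicates 1 and 2 and bars for their mean. At day 2 both KO libraries lie below both WT libraries for each gene, from 0 to 0.245 against 13.2 and 30.3 CPM for Slc25a29.

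The paired fit also called these genes. Slc22a15, an organic ion transporter, was at 33.2 and 52.4 CPM in WT and 10.3 and 21.4 in KO cells, a paired difference of -1.45 ± 0.15 (adjusted p = 0.000954). The sulfate transporter Slc26a2 was at 205 and 143 and 119 and 90.5 CPM, a difference of -0.72 ± 0.10 (adjusted p = 0.00375), and the dicarboxylate carrier Slc25a10 at 68.9 and 72.5 and 47 and 36.5, a difference of -0.78 ± 0.14 (adjusted p = 0.0116). Of the 12 lower genes, 5 were among the 24 transporters of organic ions, lipids and vitamins. Of the 26 higher genes, 8 were among the 23 nucleoside or nucleotide sugar transporters and 6 among the 29 amino acid transporters. A further 4 were among the 23 metal transporters, and 0 among the 32 mitochondrial carriers. These class counts come from a fit chosen after seeing the data, and differences between classes were not tested. Slc35c2 went from 42.9 and 62.8 CPM in WT to 69.5 and 117 in KO cells, a difference of 0.80 ± 0.11 (adjusted p = 0.0031), and Slc46a3 from 21 and 28.3 to 38.6 and 50.8, a difference of 0.86 ± 0.13 (adjusted p = 0.0044). Slc15a3, at 355 and 327 and 488 and 547 CPM, differed by 0.60 ± 0.11 (adjusted p = 0.0108), and Slc7a11, at 608 and 279 and 801 and 406, by 0.47 ± 0.10 (adjusted p = 0.0228). For Slc7a11 the KO library was above the WT library in both pairs, while the ranges of the genotypes overlapped.

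The 250 bases before the starts of 3 of the 4 genes with the smallest p are printed because NR4A receptors are known to bind the NBRE, searched as AAAGGTCA on both strands. It was in 0 of the 170 windows of the Slc genes and in 1.507% of all 32851, which says only that these letters are not in these windows. The shorter half-site AGGTCA, which every NBRE contains, was in 22 of the 170 windows (12.94%), of 19 genes, and in 16.26% of all. Capitals would mark a match, and the 3 stretches, from RefSeq on GRCm38.p6, hold none.
Slc25a29 (chr12:108835877-108836126, minus strand): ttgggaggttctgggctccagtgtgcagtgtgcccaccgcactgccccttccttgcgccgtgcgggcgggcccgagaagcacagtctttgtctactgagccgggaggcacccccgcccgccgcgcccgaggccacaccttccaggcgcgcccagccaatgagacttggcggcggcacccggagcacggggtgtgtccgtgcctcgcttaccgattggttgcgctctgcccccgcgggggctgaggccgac
Slc37a1 (chr17:31295974-31296223, plus strand): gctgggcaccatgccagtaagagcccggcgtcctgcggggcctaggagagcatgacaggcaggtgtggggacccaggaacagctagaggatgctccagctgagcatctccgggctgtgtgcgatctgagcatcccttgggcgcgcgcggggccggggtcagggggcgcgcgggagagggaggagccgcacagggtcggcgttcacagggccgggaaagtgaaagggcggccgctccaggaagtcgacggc
Slc33a1 (chr3:63964734-63964983, minus strand): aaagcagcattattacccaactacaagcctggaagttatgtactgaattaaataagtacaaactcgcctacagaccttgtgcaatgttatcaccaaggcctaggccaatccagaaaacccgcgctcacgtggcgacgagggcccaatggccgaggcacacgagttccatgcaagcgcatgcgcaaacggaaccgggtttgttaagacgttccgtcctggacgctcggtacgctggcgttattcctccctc

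At the earlier stages, the genes with the smallest p in KO against WT monocytes were Slc39a14 (1.46 and 1.37 CPM in WT, 3.36 and 4.96 in KO), Slc5a3, Slc12a2 and Slc12a7 (adjusted p = 0.998 for each). Slc12a2, the sodium, potassium and chloride cotransporter NKCC1, was at 0.842 and 0 CPM in WT and 3.998 and 4.54 in KO monocytes, and Slc12a7 at 13 and 7.17 and 24.8 and 26.2. At day 1 they were Slc4a11, Slc6a12, Slc27a3 and Slc44a2 (adjusted p = 1.0 for each). Slc44a2 was at 26.7 and 19.8 CPM in WT and 65.2 and 21.9 in KO cells, a difference of 0.90 ± 0.45 that became -0.09 without the library labelled KO day 1 replicate 1.

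Of 20 genes of partner proteins and other carriers, 3 rose and 1 fell at day 1 in WT cells and 6 rose and 2 fell at day 2, with medians of 0.07 and 0.18, beside the medians and shares of all genes given above. The glutathione conjugate exporter Abcc1 went from 53.9 and 27.2 CPM in monocytes to 389.9 and 279.8 at day 1 and 437 and 234 at day 2, and the sterol exporter Abcg1 from 70.5 and 29.5 CPM in monocytes to 164 and 130.2 at day 1 and 344 and 298 at day 2. Emb (embigin), a chaperone of lactate transporters, fell from 867 and 1406 CPM in monocytes to 211 and 199 at day 1 and 197 and 65.8 at day 2 (the day 1 call was lost without either WT day 1 library, with adjusted p = 0.0802 and 0.0887). Basigin, Bsg, the other chaperone, stood at 167 and 264 CPM in monocytes, 218 and 241 at day 1 and 138 and 130.0 at day 2 and passed neither test. Of 18 genes of the lysosome and mTORC1, which senses amino acids there, 1 rose and 3 fell at day 1 and 6 rose and 2 fell at day 2. The calls of Atp6v0d2, Lamp2 and Lamtor2 at day 1 were each lost on leaving out single libraries. So were those of Lamtor2, Mitf, Rptor, Rragc and Rragd at day 2. Mtor was at 68.8 and 37.7 CPM in monocytes, 105 and 75.7 at day 1 and 201 and 187 at day 2 and rose at day 2, and Tfeb, a regulator of lysosomal genes, fell from 110.1 and 104 CPM in monocytes to 54.7 and 28 at day 1 and 33.1 and 21.3 at day 2. Its day 1 call was lost without any 1 of 5 libraries (adjusted p of up to 0.197) and its day 2 call without WT day 2 replicate 2 (0.065). Markers of other cells moved with these changes: 10 erythroid markers summed to between 74.7 and 182 CPM in WT monocytes, at most 3.83 at day 1 and 102 to 115 at day 2, and 12 neutrophil markers to between 1160 and 2158 at day 1 and 521 to 1268 at day 2. Their part in the results was not tested. Of 10 dendritic cell markers, 8 rose and 1 (Flt3, a cytokine receptor of dendritic cell precursors) fell at day 1, and 8 rose and 0 fell at day 2. Of 9 macrophage markers tested, 5 rose and 0 fell at day 1 and 4 rose and 1 fell at day 2, and from day 1 to day 2 0 rose and 5 fell. All 10 macrophage markers summed to between 337 and 557 CPM in WT monocytes, 603 to 693 at day 1 and 197 to 313 at day 2, and Timd4 was at or near 0. In KO cells at day 2 the macrophage markers summed to 333 to 447 CPM, above both WT day 2 libraries. The part of this in the differences between genotypes was not tested.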

How the data were processed

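RNA was sequenced from 12 libraries, 2 in each of 6 groups taken from the labels. Per the labels' protocols, libraries came from a stranded mRNA kit. Per the submitters' processing notes, tools were Trimmomatic 0.35 and STAR 2.5.1b on GRCm38; no annotation release was given in the sources used here. Each library has 1 deposited file of raw read counts per gene, not normalized by the authors, and the reverse-strand counts in column 4 were used. Lines naming no gene (5.24% to 11.2% outside genes, 5.29% to 8.94% multimapping, 2.65% to 7.91% unmapped and 1.34% to 1.76% ambiguous) stayed out. Multimapping reads were not counted, so near-identical copies are undercounted. Of 47643 IDs, 47224 matched a GENCODE M21 symbol; exons of 26 of the 167 genes overlap another gene on the same strand and of 57 on the other.

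Counts were fitted by edgeR 4.0.16 in R 4.3.3 (TMM, filterByExpr on groups, robust quasi-likelihood, 1 mean per group, 6 residual degrees of freedom) over 14034 genes in 9 contrasts and 2 interactions, two-sided, with p-values adjusted by Benjamini-Hochberg over all genes and a threshold of 0.05. The common biological coefficient of variation was 0.393. Printed CPM use TMM-adjusted library sizes; the rule for members used unadjusted ones. SE is the log2 fold change over the square root of F. A group at 0 is bounded by 3 counts over the group, and intervals and floors cover counting error only. On simulated data for WT day 2 against monocytes over 14034 genes, 62% of 4-fold and 97% of 16-fold changes and 0.0361% of unchanged genes were called. Only 200 genes were changed in the simulation, far fewer than were called in the real comparison, so these rates need not hold for it.

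Named genes were, per comparison, the 8 largest rises and falls, per class the smallest adjusted p and highest CPM, and per genotype comparison the 4 smallest p, with fewer printed; Slc7a5, Slc7a7, Slc11a1, Slc27a4, Slc41a3 and other paralogs that passed no test were chosen after their values were seen, as were the genes of the paired fit. The members and lists were chosen with earlier results of these data known. Same-numbered libraries share an experiment by dates in the deposited names (4 experiments), where day 1 replicate 2 reads as 16 hours; deviations of same-numbered KO and WT libraries from their group means correlated at 0.236 (monocytes), 0.194 (the first day) and 0.657 (the second day). Alternatives were upper-quartile or RLE scaling, no filter on low counts, blocks by experiment or number, DESeq2 1.42.0, compared groups only, unstranded counts, and leaving out each library or both that stood apart; the paired fit on compared groups only was added after seeing the data. Promoter windows came from RefSeq on GRCm38.p6.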

Additional observations from a re-analysis of the deposited data

How the results depend on the processing

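Of the 207 called changes in culture, 0 reversed under any alternative, 65 passed under all of them and 133 were lost on leaving out at least 1 library; blocking by experiment lost 0 of them and added others, with 54 and 23 at WT day 1, 58 rises at WT day 2 and 31 at KO day 1 beside the counts given with the results. Of the other values, the KO to WT difference of Slc44a2 at day 1 (0.90) ran from -0.0864 to 1.5 on leaving out each KO day 1 library and was -0.11 without both libraries that stood apart; the cause was not tested.

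Counts are given as rises then falls. With only the compared groups, 14 and 10 genes passed at WT day 1, 22 and 9 at WT day 2, 21 and 10 from day 1 to day 2 in WT, 20 fell at KO day 2, and 1 and 0 passed from day 1 to day 2 in KO; these fits use fewer libraries. Without the low-count filter, 24 rose from day 1 to day 2 in WT, 32 and 19 passed at KO day 1, 45 and 19 at KO day 2, 18 and 6 from day 1 to day 2 in KO, 1 and 1 in KO against WT at day 1, 3 fell at day 2, and the interactions gave 1 and 1 at day 1 and 2 falls at day 2. Blocked by experiment, 23 fell at WT day 2, 19 and 13 passed from day 1 to day 2 in WT, 21 fell at KO day 1, 45 and 20 passed at KO day 2 and 10 and 7 from day 1 to day 2 in KO. Blocked by number alone, 17 fell at KO day 1, and 5 and 4 passed from day 1 to day 2 in KO. DESeq2 gave 19 rises from day 1 to day 2 in WT, 20 falls at KO day 1, 12 and 5 from day 1 to day 2 in KO, 3 falls in KO against WT at day 2 and 1 fall in the day 2 interaction. RLE gave 5 rises from day 1 to day 2 in KO. Without both libraries that stood apart, 17 and 12 passed from day 1 to day 2 in WT, 20 fell at KO day 1, 19 at KO day 2, and 7 and 5 passed from day 1 to day 2 in KO. The paired fit on compared groups gave 18 falls at KO day 1 and 26 and 12 in KO against WT at day 2, and it could not be made for day 2 against monocytes or day 1, where no residual degrees of freedom remain. The cause of each was not tested.

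Leaving out each library in turn, with a lone library assumed to vary like the other groups, gave 17 to 59 rises and 4 to 18 falls at WT day 1, 24 to 58 and 9 to 19 at WT day 2, 2 to 15 and 2 to 10 from day 1 to day 2 in WT, 5 to 32 and 2 to 14 at KO day 1, 15 to 38 and 4 to 17 at KO day 2, and 2 to 8 and 0 to 4 from day 1 to day 2 in KO. It gave 0 to 2 higher in KO monocytes and 0 to 2 lower in the day 2 interaction. Genes near 5 CPM at the lowest depth, 5905266 reads, rest on few reads. With 2 libraries a group, 4-fold changes were often missed on simulated data in which few genes changed.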

Other observations

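At day 2 the replicates of both genotypes differed in the same direction for several solute carrier genes. In WT and KO alike, 14 of the 167 genes (8.38%) were at least 2-fold higher in replicate 1 than in replicate 2, and 8 (4.79%) at least 2-fold higher in replicate 2, against 3.94% and 2.69% of the 9894 autosomal coding genes with the same minimum. These are descriptions of 2 experiments, with no test. The betaine and GABA transporter Slc6a12 was at 72.7 and 7.83 CPM in WT and 98.3 and 14.2 in KO cells at day 2, and its near relative Slc6a13 at 9.42 and 1.89 and 9.5 and 2.86. The choline transporter Slc44a1 was at 65.9 and 13.1 and 79.3 and 20.6 CPM, the phagosomal metal transporter Slc11a1 at 63.2 and 12.4 and 71.6 and 18.6, the zinc exporter Slc30a1 at 29.2 and 7.45 and 42.3 and 14.1, and the mitochondrial calcium exchanger Slc8b1 at 35.4 and 6.95 and 40.1 and 10.5. Each of these 6 genes was high in replicate 1.

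In the other direction, the leucine transporter Slc7a5 was at 20.3 and 305 CPM in WT and 23.3 and 171 in KO cells, the nucleoside transporter Slc29a1 at 24.4 and 58 and 32.5 and 127, and the mitochondrial glycine carrier Slc25a38 at 40.9 and 91.1 and 41 and 96.1. Slc26a10 was at 0 and 6.19 and 0 and 5.72 CPM and had at most 0.0825 CPM in any other library. Over the 12 libraries it had 120 reads on its own strand and 213 on the other, where B4galnt1 overlaps it, so its counts are uncertain. Those 2 day 2 experiments also differed in Xist and Ddx3y, as given above, and the part of this in these differences was not tested.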
